A study of Homo sapiens with 14 samples.

Results

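HEK293T cells given 8 µM PDP were compared with cells given none, over the labeled, the unlabeled and the total mRNA of 14057 genes. The comparison uses 4 of the 14 libraries of the series, 2 replicates with 8 µM PDP and 2 with 0 µM. HEK293T is an immortalized human embryonic kidney line, and PDP is a pyridostatin analog that binds and stabilizes G-quadruplexes. In the treated cells PDP preceded the labeling with 4-thiouridine (s4U) by 20 min. Cells of both groups, the 0 µM cells included, then took up 500 µM s4U for 1 h, and their isolated RNA was treated with acrylonitrile. The treated cells had therefore met PDP for 20 min longer than they met the label. The sources used here do not say whether replicates came from separate cultures, so a p-value measures the spread between these libraries. The 14057 genes, of 57820 annotated ones, are those with a mean of at least 1 total FPM and at least 0.5 labeled FPM over the 4 libraries, where FPM is a fragment count divided by the size of its library. They hold 12342 protein-coding genes, 558 antisense RNAs, 427 pseudogenes and 385 lincRNAs.

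A G-quadruplex is a fold of guanine-rich DNA or RNA in which G runs stack in planar quartets. Such motifs are frequent near transcription start sites, and in promoters such as those of MYC and TERT they are known for their effect on transcription when a ligand holds them folded. s4U enters RNA as it is made, and acrylonitrile turns it into a base that is read as C. A fragment with a T-to-C mismatch is thus counted as labeled, which stands for RNA made during the last hour, and the rest of the total is counted as unlabeled, which holds older RNA and new RNA that shows no mismatch. A gene whose transcription stops loses labeled RNA first, and its unlabeled RNA follows at the pace of its decay.

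The 4 libraries hold 9770956 and 10564894 fragments at 0 µM and 22363992 and 18373693 at 8 µM, so the treated ones are about as deep as the 22191913 and 22326477 fragments of the 4 µM libraries and deeper than the 0 µM ones. Depth and PDP cannot be told apart in the comparison with 0 µM. The 2 libraries at 0 µM differed by hardly more than counting noise, with a chi-square per degree of freedom of 1.08 over 6045 genes (p = 2.4e-05) against 6.88 between the 8 µM libraries, and counted as 1 library they left 1287 genes with more and 3619 with less labeled RNA. Of the HEK293T markers, 9 of 10 reached 1 FPM, with sums of 1368 to 1374 FPM at 0 µM and 1348 to 1392 at 8 µM, while 0 of 8 MCF7 and 0 of 9 liver markers did. Of 9 fibroblast and endothelial markers 2 did, led by COL1A1 at 52.9 FPM, and of 7 blood markers 1 did, HBA1 at 1.22 FPM. The 13 mitochondrially encoded mRNAs are listed at 0 in these tables.

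Labeled fragments made up 17.18% and 17.22% of all fragments within genes at 0 µM and 12.54% and 13.16% at 8 µM. Both treated libraries thus lay below both untreated ones, with a mean of 12.9% ± 0.43 (SD, n = 2) against 17.2% ± 0.027 (SD, n = 2) and a ratio of 0.747. Over the median gene the share was 21.5% ± 0.064 (SD, n = 2) and 15.9% ± 0.57 (SD, n = 2). The exact two-sided permutation test of 2 against 2 libraries gave p = 0.333, the smallest that its 6 splits allow. RNA that had met acrylonitrile but no s4U carried a mismatch in 7.63% of its fragments within genes. Less that background, the labeled share was 9.57% at 0 µM and 5.22% at 8 µM, a ratio of 0.546. The 4 µM libraries lay at 13.6% ± 0.22 (SD, n = 2), between both groups.

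**Figure D1:**
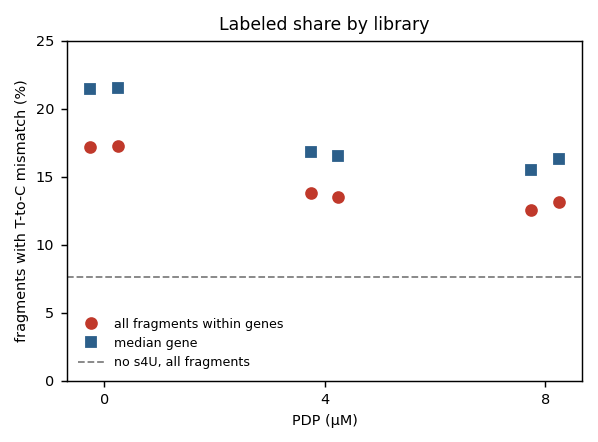
Labeled share (% of fragments that carry a T-to-C mismatch, y axis) in each of the 6 PDP libraries (x axis, PDP in µM), over all fragments within genes (circles) and for the median gene (squares). Both 8 µM libraries lie below both 0 µM libraries in both measures, and the dashed line marks the 7.63% of RNA treated with acrylonitrile alone.

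Labeled RNA, scaled to library size, rose for 1451 genes (10.3% of those tested) and fell for 3901 (27.8%) at an adjusted p under 0.05 in edgeR's quasi-likelihood test, 38.1% in all, with a median log2 change of -0.11. Centered on the median gene of each library, 2222 rose (15.8%) and 2988 fell (21.3%), so that the higher genes were 42.6% of those called instead of 27.1%. With the mismatch share that each gene had without s4U subtracted, 354 rose and 3973 fell. In every treated library 1598 genes (11.4%) were at least 1.5-fold below every untreated library, and 801 (5.7%) at least 1.5-fold above. Among protein-coding genes with a mean of at least 5 labeled FPM, those that rose were led by the AP-1 subunit JUN and by DUSP1, a phosphatase that switches off MAP kinases. Those that fell were led by the myo-inositol transporter SLC5A3 and, among genes with a mean over 50 labeled FPM, by UBE2S, a ubiquitin-conjugating enzyme of the anaphase-promoting complex. The changes below are log2 fold changes ± SE of labeled RNA scaled to library size, unless another quantity is named. Centering raised each of them by about 0.13. For 19 of the genes named here the labeled share at 8 µM was no higher than in RNA without s4U, so their labeled count at 8 µM is not above background. 12 of them, ATP5D, COL1A1, FASN, NCL, NDUFS7, NELFB, NHP2, NOTCH3, PSMD2, RPL36, RPS19BP1 and RTEL1, are among the genes that fell.

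JUN, at chr1:59246465-59249785 in GRCh37, had 162 and 164 FPM without PDP and 927 and 841 FPM at 8 µM of labeled RNA (2.44 ± 0.06, adjusted p = 6.0e-191). The 4 µM libraries lay between, at 376 and 406 FPM, and SOX4 (0.59), singled out after its value was seen, came next among genes with a mean over 50 labeled FPM. ATF3, a stress-induced partner of JUN in the ATF and CREB family, had 5.22 and 4.35 FPM without PDP and 15.7 and 16.1 FPM at 8 µM (1.73 ± 0.16, adjusted p = 2.2e-24). DUSP1 had 16.1 and 16.3 FPM without PDP and 62.3 and 64.7 FPM at 8 µM (1.97 ± 0.09, adjusted p = 3.4e-73). For all 3 genes the treated libraries lay above the untreated ones, which the choice required, and replicates lay close together beside that distance. FAM83E, of the FAM83 scaffold family, had 4.40 and 4.26 FPM without PDP and 15.2 and 18.5 FPM at 8 µM (1.95 ± 0.16, adjusted p = 5.4e-30). The Rac activator TIAM2 had 3.89 and 3.22 FPM without PDP and 11.1 and 9.20 FPM at 8 µM (1.52 ± 0.18, adjusted p = 9.3e-15), and the splicing factor SRSF7 had 3.38 and 4.45 FPM without PDP and 11.0 and 10.9 FPM at 8 µM (1.47 ± 0.18, adjusted p = 8.8e-15). TIAM2 stood at 10.7 and 8.73 FPM at 4 µM, about as high as at 8 µM, unlike JUN and DUSP1.

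The membrane protein TMEM187 had 2.56 and 3.88 FPM without PDP and 9.75 and 7.78 FPM at 8 µM (1.44 ± 0.19, adjusted p = 6.6e-12). KLF10, a zinc-finger factor induced by TGF-beta, had 4.30 and 3.69 FPM without PDP and 9.03 and 11.2 FPM at 8 µM (1.33 ± 0.18, adjusted p = 3.9e-12). Both groups were apart in each case, which the choice required, though the replicates of TMEM187 also differed. RP6-24A23.6, annotated as protein-coding, had 6.14 and 5.30 FPM without PDP and 13.1 and 14.3 FPM at 8 µM (1.26 ± 0.15, adjusted p = 2.2e-14), and the microtubule-bound ubiquitin ligase MID1 had 24.7 and 23.4 FPM without PDP and 50.4 and 58.7 FPM at 8 µM (1.18 ± 0.09, adjusted p = 1.6e-34). Among noncoding transcripts, by the same rule, RP11-478C6.4 (3.31 ± 0.22, adjusted p = 1.8e-40), the lincRNA RP4-564F22.5 (1.71 ± 0.21, adjusted p = 7.8e-14) and the antisense RNA SDCBP2-AS1 (1.22 ± 0.18, adjusted p = 4.5e-10) rose most. Every fragment of RP11-478C6.4 carried a mismatch in all 6 libraries, at 1.23 and 1.23 FPM without PDP, so for it the labeled count is the total count.

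SLC5A3 and the mitochondrial ribosomal protein gene MRPS6 overlap on chromosome 21, and fragments of both cannot be told apart with certainty. SLC5A3 had 15.4 and 12.9 FPM without PDP and 4.20 and 4.25 FPM at 8 µM of labeled RNA (-1.74 ± 0.16, adjusted p = 1.7e-24), and MRPS6 had 16.0 and 13.9 FPM without PDP and 4.87 and 5.55 FPM at 8 µM (-1.52 ± 0.15, adjusted p = 2.3e-21). UBE2S, at chr19:55912652-55919145, had 117 and 120.4 FPM without PDP and 40.1 and 41.1 FPM at 8 µM (-1.55 ± 0.07, adjusted p = 4.7e-77). Its labeled share dropped from 12.3 and 12.7% to 6.54 and 6.17%, next to 4.21% for UBE2S in RNA without s4U. RPS19BP1, a nucleolar regulator of SIRT1, had 32.3 and 31.0 FPM without PDP and 11.1 and 10.1 FPM at 8 µM (-1.57 ± 0.11, adjusted p = 8.8e-39), and the DNA glycosylase gene NTHL1 had 13.4 and 14.3 FPM without PDP and 4.96 and 4.41 FPM at 8 µM (-1.56 ± 0.15, adjusted p = 8.5e-21). For RPS19BP1 the share at 8 µM, 6.42 and 6.21%, was no higher than the 6.43% of RNA without s4U.

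UCKL1, a uridine-cytidine kinase homolog, had 25.5 and 23.1 FPM without PDP and 7.51 and 9.80 FPM at 8 µM (-1.50 ± 0.12, adjusted p = 2.9e-30). The Ras-association protein gene RASSF7 had 9.31 and 10.1 FPM without PDP and 3.62 and 3.16 FPM at 8 µM (-1.51 ± 0.18, adjusted p = 4.5e-15). LENG1 had 6.04 and 10.0 FPM without PDP and 2.28 and 2.83 FPM at 8 µM (-1.67 ± 0.20, adjusted p = 1.3e-14), and its untreated replicates differed from each other as well. The kinesin KIFC2 had 8.90 and 6.91 FPM without PDP and 2.41 and 2.72 FPM at 8 µM (-1.62 ± 0.20, adjusted p = 8.7e-14), and the RNA-binding protein NANOS1 had 7.06 and 8.14 FPM without PDP and 2.28 and 3.10 FPM at 8 µM (-1.52 ± 0.20, adjusted p = 3.6e-12). In all 10 genes that fell most both treated libraries lay below both untreated ones, which the choice required (41.6% of all genes tested did so, and 26.2% had both treated libraries above). Of noncoding transcripts RP11-424C20.2 (-1.45), CTD-2517M22.14 (-1.44) and RP11-473M20.7 (-1.42) fell most. Their total RNA changed by -0.57 for UBE2S, -0.47 for NTHL1 and -0.33 for SLC5A3.

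**Figure D2:**
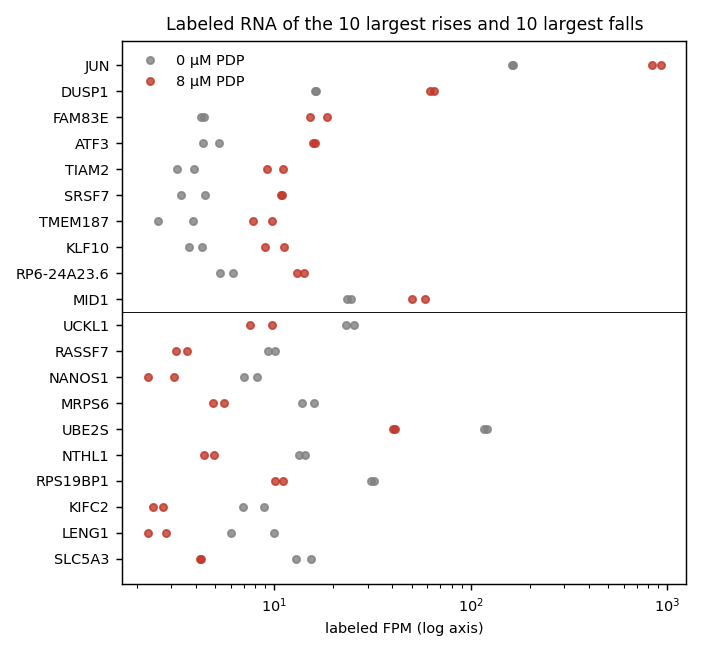
Labeled FPM (log axis) of the 10 protein-coding genes that rose most and the 10 that fell most, with 1 point per library at 0 µM (grey) and at 8 µM (red). The groups do not overlap for any of these genes, which the choice of genes required, and JUN stands highest at 927 and 841 FPM.

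The motif that can fold into a G-quadruplex was searched as 4 runs of at least 3 G with loops of 1 to 7 bases (longer runs allowed, on both strands, without overlap) in the 1000 bases upstream of each annotated start in GRCh37. It occurred in 44.6% of the 14057 windows, and in 25% of those of all 57820 annotated genes. Below is the motif of at most 30 bases nearest to the start for 3 genes that rose, for 3 that fell and for 4 genes that the study names for PDP, each read 5′ to 3′ on the strand given, with the G runs in capitals.
JUN, chr1:59249974-59249998, minus strand, 189 bases upstream: GGGGaGGGGaccGGGGaagagaGGG
DUSP1, chr5:172198591-172198614, minus strand, 393 bases upstream: GGGGactcGGGGaGGGagagaGGG
SRSF7, chr2:38978710-38978739, minus strand, 74 bases upstream: GGGGagaggaGGGGGcGGGacagcatGGGG
SLC5A3, chr21:35445682-35445701, plus strand, 169 bases upstream: GGGctGGGctGGGGtcGGGG
UBE2S, chr19:55919348-55919371, plus strand, 203 bases upstream: GGGGGcccgcGGGGGtcGGGaGGG
NTHL1, chr16:2098147-2098167, minus strand, 280 bases upstream: GGGcgcGGGtgaGGGcccGGG
TERT, chr5:1295204-1295221, plus strand, 20 bases upstream: GGGGaGGGGctGGGaGGG
VEGFA, chr6:43737860-43737879, plus strand, 42 bases upstream: GGGGcGGGccGGGGGcGGGG
BAD, chr11:64052258-64052279, minus strand, 82 bases upstream: GGGGGGGcGGGGccGGGccGGG
NOTCH3, chr19:15311866-15311890, minus strand, 74 bases upstream: GGGcGGGGGGcGGGGGcgcgctGGG

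The window of JUN, which rose most, held 4 such motifs, that of DUSP1 1 and that of SRSF7 1, while RPS19BP1, MRPS6 and LENG1, which fell, had 0, as did AKT2 and PIM2 of the genes that the study names. Among the 10 protein-coding genes that rose most 6 had a motif, and among the 10 that fell most 7. These 10 include SLC5A3, with 2 motifs, and MRPS6, with 0, which overlap and whose fragments cannot be told apart with certainty. A motif is a match of letters in this window and not a folded structure. Over all genes that rose, 38.8% held a motif, against 54.1% of those that fell and 59.2% of those at least 1.5-fold lower in every library.

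The text of the study's results names 6 genes for PDP, and all fell in labeled RNA, with either scaling. The study chose them on these libraries, as it did HRAS and SRC below, and they are no independent evidence of direction. TERT, the catalytic subunit of telomerase, had 24.4 and 22.6 FPM without PDP and 10.3 and 10.9 FPM at 8 µM (-1.15 ± 0.12, adjusted p = 2.7e-20), with 15.5 and 15.1 FPM at 4 µM. Its unlabeled RNA stood at 68.7 and 71.2 FPM without PDP and 71.1 and 66.3 FPM at 8 µM (-0.02 ± 0.07, adjusted p = 0.77). The growth factor VEGFA had 22.8 and 20.4 FPM without PDP and 10.6 and 13.7 FPM at 8 µM (-0.83 ± 0.12, adjusted p = 2.9e-11), and NOTCH3, a Notch receptor, had 18.6 and 20.0 FPM without PDP and 10.3 and 10.5 FPM at 8 µM (-0.89 ± 0.12, adjusted p = 9.6e-12). In unlabeled RNA VEGFA stood at 0.19 ± 0.09, adjusted p = 0.051 (-0.23, adjusted p = 0.023 after centering) and NOTCH3 at -0.14 ± 0.05, adjusted p = 0.02. The kinase genes AKT2 (-0.65 ± 0.10, adjusted p = 3.8e-10) and PIM2 (-0.88 ± 0.26, adjusted p = 0.0034) and the BCL-2 family member BAD (-0.66 ± 0.21, adjusted p = 0.0083) fell by less or with larger errors, PIM2 from 3.99 and 2.84 to 1.97 and 1.69 FPM. A GC term, which takes from each library a fitted trend with transcript GC content, leaves 1184 genes (8.68%) higher and 2325 (17.1%) lower of the 13635 with a transcript. A rank correlation of -0.12 between labeled change and GC content remains. The term would also take out a change with PDP that follows GC content, and cannot tell it from a trend of the libraries. With the GC term, TERT stood at -0.56, NOTCH3 at -0.37, VEGFA at -0.79 and BAD at -0.07. The transcripts of TERT, BAD and NOTCH3 have 65.7%, 65.8% and 63.1% GC.

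Of 12 tested genes whose promoters are known for G-quadruplexes, labeled RNA fell for 5 and rose for 0 (41.7% and 0% against 27.8% and 10.3% of all genes tested, and 4 and 1 genes after centering), with a median of -0.52 against -0.11 over all genes. Of the 5 that fell, the study names HRAS, SRC, TERT and VEGFA from these libraries, so count and median are no independent evidence of direction. HRAS, a small GTPase, had 16.0 and 16.5 FPM without PDP and 7.15 and 6.86 FPM at 8 µM (-1.21 ± 0.14, adjusted p = 1.6e-16), and the kinase SRC (-0.68), the growth factor PDGFA (-0.74), TERT and VEGFA also fell. The libraries of PDGFA touched, at 1.74 and 3.12 and 1.74 and 1.14 FPM. MYC, whose promoter quadruplex is the best known, had 229.6 and 227 FPM without PDP and 233 and 252 FPM at 8 µM. It did not pass when scaled to library size (0.09 ± 0.06, adjusted p = 0.24). Its unlabeled RNA, in contrast, rose from 149.6 and 149 to 338 and 369 FPM (1.24 ± 0.05, adjusted p = 7.0e-18). Of 13 telomerase and shelterin genes 7 fell and 1 rose (53.8% and 7.69%, against 27.8% and 10.3% of all genes tested, and 4 and 1 genes after centering). They include the telomere helicase RTEL1 (-0.91 ± 0.11, adjusted p = 7.3e-14), the telomerase RNA-binding proteins NHP2 (-0.67) and DKC1 (-0.31) and the shelterin member TERF2IP (-0.49), while POT1 rose (1.66 ± 0.54, adjusted p = 0.0074), from a level of 0.512 and 0.189 FPM. Of 16 helicases and binders of G-quadruplexes 6 fell and 5 rose (37.5% and 31.2%, and 6 and 5 genes after centering). RTEL1 and PIF1 (-1.03 ± 0.16, adjusted p = 1.4e-09) fell, as did nucleolin, NCL (-0.44 ± 0.06, adjusted p = 6.7e-11), whereas DHX9 (0.60 ± 0.11, adjusted p = 5.6e-07), BLM (0.63) and HNRNPA1 (0.27) rose. HNRNPA1 carried mismatches in 7.26% of fragments without s4U, against 7.36 and 7.82% at 0 µM, so little of its labeled count is label.

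Unlabeled RNA rose for 8592 genes (61.1%) and fell for 828 (5.89%), with a median of 0.43, and total RNA rose for 7558 (53.8%) and fell for 1339 (9.53%), with a median of 0.31. Centering removes that shift and leaves 3804 genes (27.1%) higher and 4153 (29.5%) lower in unlabeled RNA, and 3875 (27.6%) higher and 4202 (29.9%) lower in total RNA. The share of higher genes among those called thus went from 91.2% to 47.8% in unlabeled and from 85.0% to 48.0% in total RNA. Fragments within genes were 82.8% ± 0.30 (SD, n = 2) of the library at 0 µM and 87.4% ± 1.3 (SD, n = 2) at 8 µM, and the 20 most abundant genes took 5.15% and 4.30% of them. The part of these values in the shift was not tested.

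In total RNA, TXNIP, a regulator of thioredoxin induced by glucose, rose most by the same rule. It had 1.54 and 1.33 FPM without PDP and 11.1 and 11.4 FPM at 8 µM (2.98 ± 0.21, adjusted p = 3.3e-13, and 2.67 after centering). JUN had 251 and 262 FPM without PDP and 1309.7 and 1202 FPM at 8 µM (2.29 ± 0.05, adjusted p = 1.4e-28). The zinc-finger gene ZNF34 (2.27), C12orf79 (2.12) and FAM83E (2.03) followed, all with groups apart, which the choice required (65.9% of all genes tested were higher in both treated libraries). By the same rule, the largest falls in total RNA were those of the heat shock gene HSPA1B (-1.18 ± 0.18, adjusted p = 8.0e-07), AKAP17A (-0.96), the ADP/ATP carrier SLC25A6 (-0.87), MAMDC4 (-0.87) and the kinase MAPK15 (-0.86). HSPA1B has a near-identical copy, HSPA1A, and 64.7% of its fragments carried a mismatch in RNA without s4U. SLC25A6 and AKAP17A lie in the pseudoautosomal region and had 30.8% and 17.5%, so their labeled counts are uncertain. How unique pairs were assigned between copies is not known, so their total counts and that of HSPA1B are uncertain too.

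Among genes with a mean of at least 5 FPM of unlabeled RNA the largest rise was that of KLF6, a zinc-finger factor of early responses, with 3.38 and 1.80 FPM without PDP and 18.5 and 18.7 FPM at 8 µM (2.86 ± 0.19, adjusted p = 1.4e-13). ADM, which encodes the peptide adrenomedullin, had 1.84 and 1.61 FPM without PDP and 11.1 and 9.80 FPM at 8 µM (2.60 ± 0.21, adjusted p = 1.1e-11). RGS16, which limits G-protein signals, had 2.05 and 1.61 FPM without PDP and 8.67 and 10.2 FPM at 8 µM (2.37 ± 0.22, adjusted p = 1.0e-10). The tumor suppressor RASSF1 rose from 4.91 and 5.87 to 27.9 and 24.9 FPM (2.29), and the DNA primase subunit PRIM2 from 1.84 and 1.70 to 9.17 and 10.4 FPM (2.46). At 0 µM most fragments of these 5 genes were labeled, 83.9 and 86.1% for ADM and 53.8 and 58.1% for PRIM2. The falls in unlabeled RNA were smaller, and were led by MAMDC4 (-0.83), MAPK15 (-0.82), the collagen COL7A1 (-0.77 ± 0.11, adjusted p = 2.8e-07), TMEM74B (-0.71) and RP11-481A20.11 (-0.69). After centering, all 5 rises and all 5 falls still passed.

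Tested within each library, labeled RNA fell against unlabeled RNA for 7626 genes (54.3%) and rose for 90 (0.64%), with a median of -0.59. With both kinds of RNA centered, which takes out the drop of the whole library, 1573 fell (11.2%) and 796 rose (5.66%). Of the 3901 genes with less labeled RNA, 1339 (34.3%, against 61.1% of all genes) had more unlabeled RNA. Less unlabeled RNA was found for 732 (18.8%, against 5.89% of all genes), and 1830 (46.9%) did not pass in unlabeled RNA. Of the 1451 with more labeled RNA, 1264 (87.1%, against 61.1% of all genes) also had more unlabeled RNA, 185 did not pass and 2 had less.

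**Figure D3:**
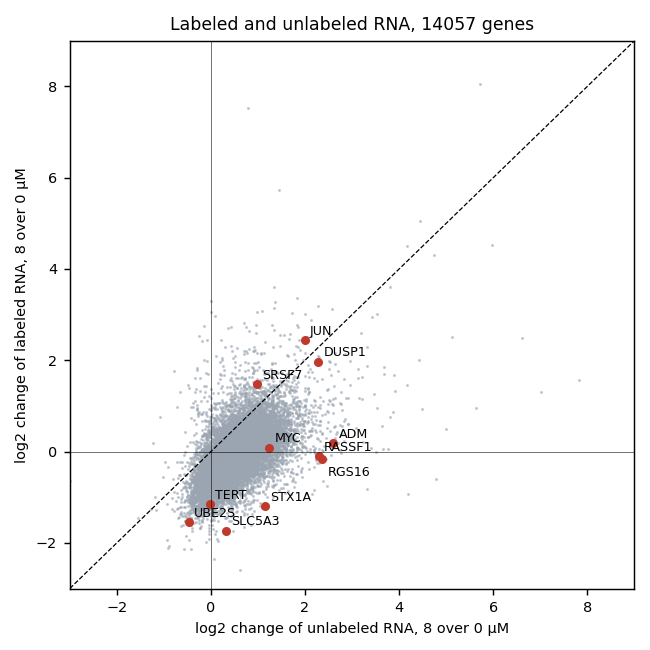
Log2 change of unlabeled RNA (x axis) and of labeled RNA (y axis) from 0 to 8 µM PDP for the 14057 genes, scaled to library size, with named genes in red and the diagonal of equal change dashed. The cloud lies below the diagonal (median of labeled against unlabeled RNA -0.59), JUN and SRSF7 lie above it, and RGS16, ADM and RASSF1 lie far below it.

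The genes whose labeled share fell most had been mostly labeled before. The share of RGS16 went from 73.7 and 78.2% to 35.8 and 34.7% (-2.53 ± 0.29, adjusted p = 3.8e-14 for labeled against unlabeled RNA), that of ADM from 83.9 and 86.1% to 48.2 and 55.1% (-2.42 ± 0.26, adjusted p = 2.3e-15), and that of RASSF1 from 76.2 and 75.3% to 36.8 and 37.9% (-2.39 ± 0.18, adjusted p = 5.9e-27). Their labeled RNA itself did not pass, at -0.17, 0.19 and -0.10, so the drop in share came with more unlabeled fragments. STX1A, a syntaxin of synaptic vesicle fusion, went from 64.6 and 65.1% to 27.6 and 25.6% with less labeled (-1.20) and more unlabeled RNA (1.14). By the same rule ANKRD30BL fell most (-3.59 ± 0.52, adjusted p = 1.4e-09), but 96.1% of its fragments carried a mismatch without s4U, so its labeled count does not measure label.

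The share rose for few genes. CASK, a scaffold kinase of cell junctions, went from 12 and 10.2% to 16.2 and 16.8% (0.66 ± 0.18, adjusted p = 9.6e-04), and ACBD6, a binder of acyl-CoA, from 8.62 and 9.77% to 12.7 and 13% (0.53 ± 0.13, adjusted p = 3.5e-04). SRSF7 went from 12 and 14.2% to 17.6 and 17.9% (0.50 ± 0.19, adjusted p = 0.021). The ciliary kinase NEK8 (0.59) and TMEM187 (0.64) belong to the same group. JUN, already labeled in 64.7 and 62.5% of its fragments at 0 µM, reached 70.8 and 69.9% (0.45 ± 0.06, adjusted p = 5.0e-12). For each of them both treated libraries lay above both untreated ones, which the choice required for all but JUN. Of all genes tested, 475 (3.38%) did so.

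Immediate early regulators, genes switched on within minutes by growth factors and stress, included genes that rose and genes that fell in labeled RNA. Of 45 tested, 10 rose and 13 fell (22.2% and 28.9%, against 10.3% and 27.8% of all genes tested, and 13 and 11 genes after centering). JUN, ATF3, KLF10, EGR1 (1.21 ± 0.24, adjusted p = 5.4e-06), the Notch and growth factor target HES1 (1.12 ± 0.09, adjusted p = 3.4e-32), KLF6 (0.71) and JUND (0.45 ± 0.08, adjusted p = 4.5e-08) rose. HES1 had 25.7 and 24.0 FPM without PDP and 52.9 and 55.3 FPM at 8 µM, and JUND 48.1 and 50.6 FPM without PDP and 66.4 and 68.6 FPM at 8 µM. The growth regulator IER5 fell from 102 and 97.7 to 38.9 and 41.8 FPM (-1.31 ± 0.07, adjusted p = 8.7e-57), and the same direction held for HES4 (-1.36 ± 0.07, adjusted p = 3.3e-64), MAFK (-1.09), JUNB (-0.75), the mRNA decay factor ZFP36L2 (-0.77) and the apoptosis inhibitor MCL1 (-0.68). FOS did not pass (0.95 ± 0.51, adjusted p = 0.13). Where a share lies near that of all genes, as for these falls, the count is no result about the list. In unlabeled RNA 36 of the 45 (80% against 61.1% of all genes) rose and 1 fell. The median was 0.92, and after centering 25 rose and 5 fell, with a median of 0.50. In labeled against unlabeled RNA 34 fell and 2 rose (75.6% and 4.44%, against 54.3% and 0.64% of all genes). After centering 19 of the 45 fell and 3 rose in that measure, where 11.2% and 5.66% of all genes did. GADD45B, for example, had 4.71 and 5.49 FPM without PDP and 21.8 and 21.0 FPM at 8 µM of unlabeled RNA (2.06 ± 0.14, adjusted p = 3.8e-13).

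Of 16 feedback genes of MAP kinase signals, 5 rose and 4 fell (31.2% and 25%, against 10.3% and 27.8% of all genes tested, and 7 and 3 genes after centering). DUSP1 rose most, with DUSP8 (0.48 ± 0.14, adjusted p = 0.0022), DUSP16 (0.54), DUSP10 (1.02) and PHLDA1 (0.62) behind it. The ERK phosphatase DUSP7, on the other hand, fell from 33.7 and 34.0 to 15.7 and 15.6 FPM (-1.11 ± 0.10, adjusted p = 4.9e-25), and PHLDA3 (-1.31) and SPRY1 (-0.57 ± 0.12, adjusted p = 1.8e-05) fell too. Of 20 Notch pathway genes 9 fell and 4 rose (45% and 20%, and 8 and 6 genes after centering). Receptor NOTCH1 had 66.0 and 62.2 FPM without PDP and 27.3 and 30.7 FPM at 8 µM (-1.15 ± 0.08, adjusted p = 1.7e-38), its ligand JAG2 66.8 and 63.2 FPM without PDP and 28.3 and 29.2 FPM at 8 µM (-1.18 ± 0.08, adjusted p = 3.0e-40), and the feedback inhibitor NRARP 120.4 and 124 FPM without PDP and 56.3 and 66.6 FPM at 8 µM (-1.0 ± 0.07, adjusted p = 2.7e-40). The targets HES1 and HEY1 (0.31 ± 0.07, adjusted p = 6.8e-05) moved the other way. Of 23 genes of TGF-beta and its SMAD feedback 2 rose and 2 fell (8.7% and 8.7%, and 3 and 1 genes after centering). TGFB2, a ligand, rose from 0.307 and 0.0947 to 2.1 and 1.36 FPM (3.12 ± 0.55, adjusted p = 2.1e-07). Its 0 µM levels lay below the filter's mean of 0.5 labeled FPM, which it reached only through the 8 µM libraries. The corepressor SKIL rose (0.99), while its paralog SKI fell (-0.73 ± 0.06, adjusted p = 5.4e-26).

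The apoptosis inducer BBC3 (-0.89 ± 0.12, adjusted p = 1.6e-11), SESN2 (-0.81 ± 0.09, adjusted p = 4.8e-16) and AEN (-0.41) fell. Of 36 genes of homologous recombination and the Fanconi pathway 6 fell and 4 rose (16.7% and 11.1%, against 27.8% and 10.3% of all genes tested, and 6 and 9 genes after centering). The recombinase loader BRCA2 rose from 2.35 and 1.70 to 4.43 and 4.84 FPM (1.19 ± 0.25, adjusted p = 1.5e-05), while XRCC3 (-0.73 ± 0.09, adjusted p = 1.5e-14), FANCA (-0.51) and the nuclease MUS81 (-0.45) fell. These falls of BBC3 and MUS81 shrank with the GC term, to -0.23 and -0.02.

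Replication-dependent histone genes, transcribed in S phase, rose or did not pass. Of 32 tested, 8 rose and 0 fell (25% and 0%, against 10.3% and 27.8% of all genes tested, and 9 and 0 genes after centering, 8 and 0 with the GC term), with a median of 0.41, and 24 did not pass. HIST1H2BD had 0.921 and 0.852 FPM without PDP and 3.04 and 3.16 FPM at 8 µM (1.80 ± 0.33, adjusted p = 7.2e-07), and HIST1H4C 0.819 and 1.23 FPM without PDP and 1.97 and 3.70 FPM at 8 µM (1.42 ± 0.33, adjusted p = 1.1e-04). HIST2H4A (2.26) and HIST2H4B (2.73) are identical copies, so the split of their fragments is uncertain. In unlabeled RNA 18 rose (56.2% against 61.1% of all genes) and 0 fell (4 and 3 after centering). These mRNAs mostly lack a poly(A) tail, and the levels are low in polyadenylated RNA, 8.09 and 8.14 FPM of labeled RNA at 0 µM for HIST1H1C.

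Of 28 genes of G1 cyclins, E2F factors and CDK inhibitors 12 fell and 4 rose (42.9% and 14.3%, against 27.8% and 10.3% of all genes tested, and 10 and 6 genes after centering), among them cyclin D1, CCND1, with 71.9 and 71.8 FPM without PDP and 45.8 and 49.3 FPM at 8 µM (-0.60 ± 0.07, adjusted p = 6.2e-14), and the inhibitors CDKN2A (-0.67 ± 0.08, adjusted p = 2.4e-13) and CDKN2C (-0.81 ± 0.13, adjusted p = 5.1e-09). Cyclin D2, CCND2, did not pass (-0.09 ± 0.08, adjusted p = 0.39). Of 40 mitotic genes 12 fell and 2 rose (30% and 5%, and 9 and 4 genes after centering). The polo-like kinase PLK1 fell from 26.5 and 28.3 to 14.8 and 15.9 FPM (-0.84 ± 0.10, adjusted p = 6.3e-14), and UBE2C (-0.90 ± 0.14, adjusted p = 2.1e-09), WEE1 (-0.59) and the proliferation marker MKI67 (-0.49) fell as well.

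Of 29 genes of the integrated stress and unfolded protein responses 16 fell and 1 rose (55.2% and 3.45%, against 27.8% and 10.3% of all genes tested, and 14 and 2 genes after centering, 11 and 2 with the GC term), with a median of -0.42. The amino acid transporter SLC7A5 had 149 and 145 FPM without PDP and 84.5 and 91.5 FPM at 8 µM (-0.74 ± 0.06, adjusted p = 2.1e-26), and XBP1, the factor of the unfolded protein response, 35.6 and 34.9 FPM without PDP and 14.6 and 17.3 FPM at 8 µM (-1.15 ± 0.10, adjusted p = 7.8e-27). CBS, which makes cystathionine, had 157 and 150.1 FPM without PDP and 70.3 and 76.4 FPM at 8 µM (-1.07 ± 0.06, adjusted p = 5.5e-49), and CEBPB fell too (-1.23 ± 0.10, adjusted p = 5.2e-28). The central factor ATF4 fell by less, from 63.0 and 62.3 to 57.0 and 51.6 FPM (-0.20 ± 0.07, adjusted p = 0.02). Of 30 heat shock chaperones 9 fell and 3 rose (30% and 10%, and 7 and 5 genes after centering). Their regulator HSF1 (-0.85 ± 0.08, adjusted p = 6.2e-21) and DNAJB1 (-1.10 ± 0.11, adjusted p = 1.9e-21) fell, while HSPA8 (-0.05 ± 0.09, adjusted p = 0.66), HSP90AA1 (-0.06 ± 0.09, adjusted p = 0.64) and HSP90AB1 (0.13) did not pass. Of 17 genes of the NRF2 pathway 7 fell and 1 rose (41.2% and 5.88%, and 6 and 1 genes after centering), with GCLM, a subunit of glutathione synthesis, at -0.99 ± 0.19, adjusted p = 3.6e-06 and SRXN1 at -1.06 ± 0.17, adjusted p = 1.3e-08.

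Of 27 genes of cholesterol and SREBP 8 fell and 4 rose (29.6% and 14.8%, against 27.8% and 10.3% of all genes tested, and 6 and 4 genes after centering). Fatty acid synthase, FASN, was the highest of them, with 567 and 551 FPM without PDP and 321 and 345 FPM at 8 µM (-0.75 ± 0.05, adjusted p = 2.1e-36), and its regulator SREBF1 fell as well (-0.62 ± 0.10, adjusted p = 1.2e-08). With the GC term FASN stood at -0.17 and SREBF1 at -0.09. Of 18 glycolytic genes 6 fell and 2 rose (33.3% and 11.1%, and 5 and 2 genes after centering), led by the phosphofructokinase PFKL (-1.20 ± 0.09, adjusted p = 1.1e-32), with GAPDH at -0.37 ± 0.06, adjusted p = 7.1e-09, while ENO1 (-0.00 ± 0.07, adjusted p = 0.97) and PKM (-0.15) did not pass. Of 75 nuclear genes of oxidative phosphorylation 15 fell and 5 rose (20% and 6.67%, and 12 and 13 genes after centering), among them NDUFS7 (-1.08 ± 0.11, adjusted p = 1.5e-18) and ATP5D (-1.03 ± 0.10, adjusted p = 2.2e-22), and of 41 proteasome genes 7 fell and 2 rose (17.1% and 4.88%, and 4 and 5 genes after centering), among them PSMD2 (-0.65 ± 0.12, adjusted p = 2.6e-07) and PSMG3 (-0.70). In both lists, as for homologous recombination, the direction of the counts turned with the scaling.

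Of 78 cytosolic ribosomal protein genes 27 fell and 10 rose (34.6% and 12.8%, against 27.8% and 10.3% of all genes tested, and 16 and 15 genes after centering), and RPS2 (-0.81 ± 0.06, adjusted p = 4.9e-34), RPL36 (-0.75 ± 0.07, adjusted p = 7.6e-21) and RPL13 (-0.70 ± 0.06, adjusted p = 1.7e-25) were among those that fell. The median labeled share of the list was 9.76% at 0 µM and 7.95% at 8 µM, next to 7.40% in RNA without s4U, so most of these labeled counts are background. RPS2 had 211 and 214 FPM without PDP and 125 and 118 FPM at 8 µM. Of 44 ribosome biogenesis genes 20 fell and 4 rose (45.5% and 9.09%, and 14 and 9 genes after centering), led by RRP1, with 42.5 and 43.2 FPM without PDP and 17.2 and 17.7 FPM at 8 µM (-1.29 ± 0.09, adjusted p = 5.9e-37). The polymerase I factor UBTF (-0.77 ± 0.07, adjusted p = 9.6e-23) and RRS1 (-0.90 ± 0.08, adjusted p = 2.5e-27) fell with it. Of 43 translation factors 13 fell and 7 rose (30.2% and 16.3%, and 12 and 12 genes after centering), and the elongation factor subunit EEF1D had 112 and 119 FPM without PDP and 43.9 and 47.6 FPM at 8 µM (-1.34 ± 0.07, adjusted p = 1.8e-62). EIF3B (-0.87 ± 0.07, adjusted p = 9.6e-28) and EEF2 (-0.46 ± 0.05, adjusted p = 1.1e-15) also fell, EEF2 from 529.7 and 542 to 398 and 380.2 FPM.

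Of 39 SR proteins and hnRNPs 15 fell and 7 rose (38.5% and 17.9%, against 27.8% and 10.3% of all genes tested, and 14 and 10 genes after centering, 20 and 3 with the GC term). HNRNPU, a nuclear scaffold protein, had 293 and 291 FPM without PDP and 150.1 and 146 FPM at 8 µM (-0.98 ± 0.06, adjusted p = 3.3e-50), and HNRNPAB 165 and 155 FPM without PDP and 76.4 and 74.0 FPM at 8 µM (-1.09 ± 0.06, adjusted p = 7.2e-51). SRSF2 (-0.44) and PTBP1 (-0.52) fell, while SRSF7 rose. Of 42 genes of RNA polymerase II and its elongation factors 18 fell and 4 rose (42.9% and 9.52%, and 14 and 6 genes after centering). The largest subunit, POLR2A, had 81.4 and 88.7 FPM without PDP and 85.3 and 76.5 FPM at 8 µM and did not pass (-0.07 ± 0.07, adjusted p = 0.44), but subunits of the pausing factor NELF fell, NELFA (-1.05 ± 0.11, adjusted p = 9.6e-20) and NELFB (-0.99 ± 0.10, adjusted p = 1.6e-18), as did the P-TEFb inhibitor HEXIM1 (-0.93 ± 0.10, adjusted p = 3.5e-18). Of 34 genes of 3′ end processing 10 fell and 2 rose (29.4% and 5.88%, and 6 and 4 genes after centering), with PABPN1 at -0.99 ± 0.09, adjusted p = 7.1e-23 and the scaffold SYMPK at -0.84 ± 0.09, adjusted p = 9.9e-19.

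Of 19 snoRNA host transcripts 5 rose and 5 fell (26.3% and 26.3%, against 10.3% and 27.8% of all genes tested, and 8 and 2 genes after centering). SNHG1 rose from 2.87 and 2.08 to 6.13 and 5.99 FPM (1.30 ± 0.22, adjusted p = 1.1e-07), while SNHG7 (-0.63 ± 0.08, adjusted p = 2.9e-14) and SNHG12 (-0.91 ± 0.15, adjusted p = 1.2e-08) fell. In unlabeled RNA 16 of the 19 (84.2% against 61.1% of all genes) rose and 0 fell (11 and 0 after centering). Of 11 abundant nuclear lncRNAs 4 rose and 2 fell with either scaling (36.4% and 18.2%). PVT1, next to MYC, had 24.1 and 23.9 FPM without PDP and 38.7 and 38.2 FPM at 8 µM (0.68 ± 0.09, adjusted p = 5.8e-12), LINC00657, also named NORAD, fell (-0.65 ± 0.09, adjusted p = 9.6e-11), and NEAT1, the scaffold of paraspeckles, did not pass, with 27.3 and 29.1 FPM without PDP and 28.3 and 28.7 FPM at 8 µM (0.02 ± 0.09, adjusted p = 0.92). Of the 8 tested HEK293T markers 4 fell and 1 rose (50% and 12.5%, against 27.8% and 10.3% of all genes tested). Their median was -0.24 against -0.11 over all genes, and after centering 2 rose and 2 fell. The marker that rose was the tubulin TUBB3 (1.29 ± 0.25, adjusted p = 3.0e-06). COL1A1, the tested fibroblast marker, stood at -0.54 ± 0.21, adjusted p = 0.028 in labeled RNA, at 10.9 and 8.54% labeled fragments at 0 µM against 12.8% without s4U.

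The KRAB-type and other zinc-finger genes named ZNF on chromosome 19, many of them repressors of repeats, were counted by symbol. Of 140 tested, 118 rose (84.3% against 61.1% of all genes) and 6 fell in unlabeled RNA, with a median of 1.20 against 0.43 over all genes (78 and 11, median 0.78, after centering, and a median of 0.56 with the GC term). In labeled RNA 19 fell and 14 rose (13.6% and 10% against 27.8% and 10.3% of all genes), with a median of 0.25 (16 and 25 after centering). Their median transcript has 43.2% GC on a chromosome where the median tested gene has 60.1%.

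**Figure D4:**
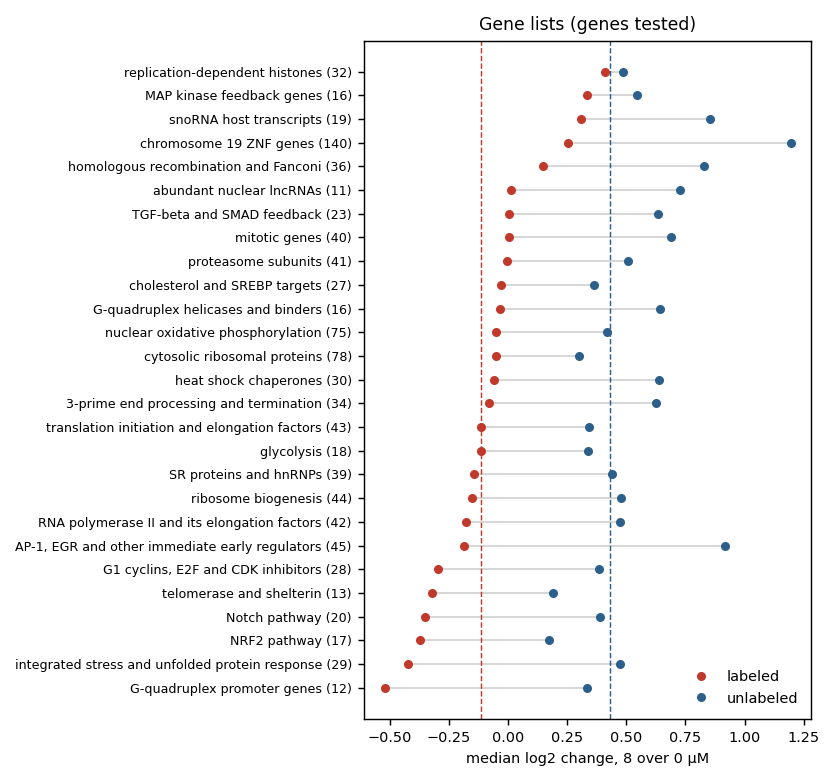
Median log2 change from 0 to 8 µM PDP (x axis) of labeled (red) and unlabeled RNA (blue) for the gene lists described here with at least 10 tested genes, with the number of tested genes in brackets and dashed lines for the medians of all 14057 genes (-0.11 and 0.43). Unlabeled medians lie to the right of labeled medians in every list drawn, and histone genes have the highest labeled median.

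Labeled change went down with GC content of the transcript. In 6 bins of equal size, from 30% to 76.9% GC, the median fell from 0.22 to 0.17, 0.06, -0.15, -0.39 and -0.67, and 67.1% of the genes in the top bin fell against 5.41% in the lowest. The rank correlation across 13635 genes with a transcript was -0.53 (Pearson -0.47), a description over genes that share libraries and are not independent. Total and unlabeled RNA had the same trend, with rank correlations of -0.59 and -0.54, whereas labeled against unlabeled RNA had -0.08. The last of these was -0.21 among the 5929 genes with a mean of at least 10 total and 5 labeled FPM. The GC term, added after seeing the data, brings the medians to 0.04 and -0.15 in the lowest and highest bins. JUN stood at 2.67, DUSP1 at 2.16, UBE2S at -1.34 and RPS19BP1 at -1.07 with it. Of the named genes BAD, SRC, PDGFA, JUNB, BBC3, MUS81, SREBF1, EEF2, GAPDH, SNHG7, ATF4, COL1A1, BLM, DUSP10, PHLDA1 and HNRNPA1 no longer passed with it. Depth differs between the groups too, and its part in this trend was not tested.

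Genes with more motifs upstream had lower labeled RNA. The median was -0.04 for the 7792 genes with 0 motifs, -0.16 with 1, -0.21 with 2 and -0.32 with 3 or more, and transcript GC content rose along with them, from a median of 47.6% to 56.0%. Within a GC bin the medians of genes with and without a motif were -0.68 and -0.65 in the highest bin, -0.41 and -0.38 in the next, then -0.19 and -0.11, 0.05 and 0.07, 0.17 and 0.18, and 0.23 and 0.22 in the lowest. With the GC term the medians were -0.03, -0.06, -0.07 and -0.09 for 0, 1, 2 and 3 or more motifs. Motifs within the gene body gave 0.04 for genes with 0 and -0.16 for those with 3 or more, 0.006 and -0.056 with the GC term, and -0.32 and -0.35 among the 6045 genes with a mean of at least 10 total and 5 labeled FPM. With that filter and the GC term together the order turned, to -0.24 and -0.15 (rank correlation 0.15 over 5929 genes).

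**Figure D5:**
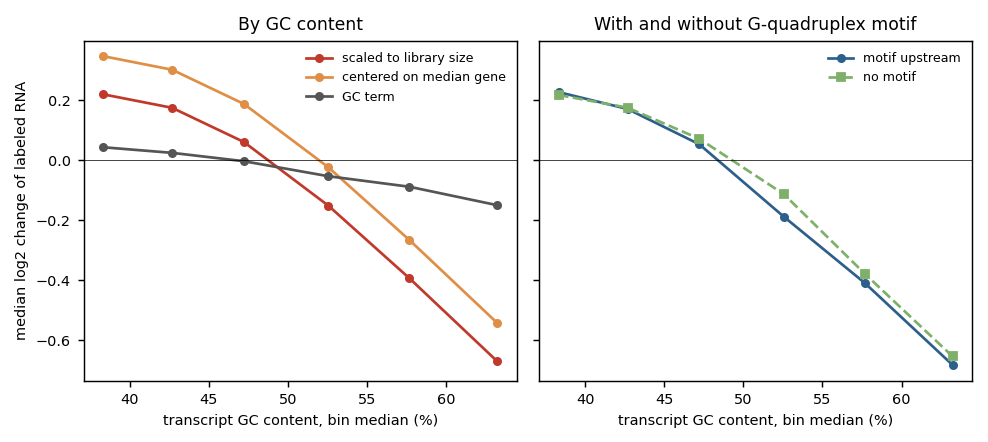
Left, median log2 change of labeled RNA (y axis) in 6 equal bins of transcript GC content (x axis, median GC in %), scaled to library size, centered on the median gene, and with a GC term. Right, the change scaled to library size in the same bins for genes with and without a G-quadruplex motif in the 1000 bases upstream of the start. The medians fall from 0.22 to -0.67 across bins, and within a bin the motif and no-motif medians lie furthest apart in the fourth, at -0.19 and -0.11.

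Level and length went along with the change as well. From the lowest to the highest of 6 bins of total FPM the labeled median fell from 0.28 to -0.51, and 72.7% of the genes in the top bin fell. From the shortest to the longest genes it rose from -0.35 to 0.19. Within each GC bin the more abundant genes stayed below the less abundant ones, at -0.78 and -0.49 in the highest bin, and the longer ones above the shorter ones, at -0.63 and -0.71. In a library of cells labeled with s4U for 24 h, genes differ in the share that is labeled. With background left in the counts, labeled against unlabeled RNA at 8 µM PDP had medians from -0.48 in the lowest to -0.71 in the highest bin of the 24 h share. The lowest bin had a median labeled share of 12.54% at 0 µM and 9.39% at 8 µM, near the 7.63% of RNA without s4U. In the highest bin it was 29.58% at 0 µM. Background thus makes up more of the labeled counts in the lowest bin. Whether the order of the bins holds with background subtracted was not tested. By chromosome, the labeled median was lowest on chromosomes 19 (-0.48), 16 (-0.37), 22 (-0.34) and 17 (-0.28), whose median transcripts have the highest GC content, and with the GC term these were -0.12, -0.15, -0.12 and -0.09.

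At 4 µM, labeled RNA rose for 1272 and fell for 2827 genes against the same 0 µM libraries, and total RNA rose for 7496 and fell for 1089. Between 8 and 4 µM, which have like depth, labeled RNA rose for 103 (0.733%) and fell for 702 genes (4.99%), total RNA rose for 37 and fell for 17, and unlabeled RNA rose for 27 and fell for 6. The median of labeled against unlabeled RNA was -0.11 in that comparison, with 620 genes lower and 24 higher. JUN rose further from 4 to 8 µM (1.18 in labeled RNA), as did DUSP1 (1.11), ATF3 (1.02) and EGR1 (0.89), and TERT fell further (-0.53, from 15.5 and 15.1 to 10.3 and 10.9 FPM). UBE2S (-0.22) and RRP1 (-0.55) also fell, while VEGFA (0.04), BAD (0.03) and IER5 (-0.13) did not pass between 4 and 8 µM. The rank correlation of labeled change with GC content was -0.29 between 8 and 4 µM.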

How the data were processed

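RNA of HEK293T cells was measured by AMUC-seq in 2 libraries each at 0, 4 and 8 µM PDP, with 500 µM s4U for 1 h, polyA selection and acrylonitrile treatment. Per the file headers and the study's methods, the authors trimmed reads (cutadapt 1.18, per the submitters' processing notes), kept 1 read per identical sequence, removed rRNA, aligned to GRCh37 (HISAT2 2.1.0), and counted unique pairs in GENCODE genes. The deposited tables give whole-number counts per gene of total fragments and of those with a T-to-C mismatch, beside FPM, which are RPM-type values that the authors scaled to library size. No source used here names the counting tool.

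Counts were tested with edgeR 4.0.16 (quasi-likelihood, offset the authors' library size), 8 against 0 µM within a fit of all 6 PDP libraries, with Benjamini-Hochberg adjustment over 14057 genes. Unlabeled counts are total minus mismatch counts, and labeled against unlabeled RNA was tested as an interaction with the library as a block. Alternatives used DESeq2 1.42.0, limma 3.58.1 with pseudocounts of 0.1, 0.01 and 1, other filters and scalings. The GC terms, the centering of labeled against unlabeled RNA and the count of the 0 µM libraries as 1 were chosen after seeing the data. The tests were also run on simulated counts with planted changes. Those counts had the same spread in all groups, no GC trend and no shift of a whole library, so they do not cover these features of the data.

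The members and gene lists were chosen with earlier results of these data known. Named are the 10 largest rises and 10 largest falls in labeled RNA of protein-coding genes (adjusted p under 0.05, groups apart, mean of at least 5 FPM), 5 and 5 in the other measures, 3 and 3 noncoding transcripts, and per list the highest and the most significant members. Some list members and 1 list are not reported here. A further 19 named genes were chosen after their values were seen. Precision is limited by 2 libraries a group and by 9770956 to 22363992 fragments per library.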

Additional observations from a re-analysis of the deposited data

How the results depend on the processing

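Of 183 gene results, 2928 of the 3115 values under other settings kept direction and side of the threshold. For labeled RNA, DESeq2 gave 876 higher and 1985 lower, TMM 2457 higher and 2811 lower, and a mean of at least 10 total and 5 labeled FPM 507 higher, with fewer genes tested. The GC term gave 1184 higher and 2325 lower and terms for GC and gene length 1107 higher and 2297 lower, and subtracting the background left 354 higher. For total RNA, DESeq2 gave 2921 higher and 3580 lower, TMM 4034 higher and 4044 lower, centering 3875 higher and 4202 lower, the GC term 2523 higher and 3312 lower, both terms 2459 higher and 3301 lower, and the stricter filter 2919 higher. For unlabeled RNA these were 2774 higher and 3540 lower, 4117 higher and 3798 lower, 3804 higher and 4153 lower, 2603 higher and 3463 lower, 2580 higher and 3431 lower and 3650 higher. Centering gave 2222 higher and 2988 lower in labeled RNA and 796 higher and 1573 lower in labeled against unlabeled RNA, where the stricter filter left 13 higher. The cause of these differences was not tested. Leaving out 1 library at a time gave 841 to 1150 genes higher and 2881 to 3559 lower in labeled RNA, 6226 to 7324 and 900 to 1438 in total RNA, 7203 to 8548 and 504 to 964 in unlabeled RNA, and 60 to 82 and 5785 to 7454 in labeled against unlabeled RNA. Without 0 µM replicate 1 or 2, which moved counts by over 1.5 times, 879 and 841 genes were higher in labeled RNA and 514 and 504 lower in unlabeled RNA. The lone library left is then assumed to vary like the other groups. Deviations of libraries with the same replicate number correlated at 0.009, 0.001 and -0.007 between 0 and 8 µM in labeled, total and unlabeled RNA. Between 4 and 8 µM these were -0.015, 0.028 and 0.049. The 0 µM libraries differ by hardly more than counting noise, so their correlations cannot show whether the numbers mark pairs. With the replicate block, 1401 higher and 3847 lower in labeled, 7577 higher and 1347 lower in total, 8633 higher and 827 lower in unlabeled and 86 higher and 7524 lower in labeled against unlabeled RNA were called. The labeled share ratio lay at 0.729 to 0.765 over whole libraries and 0.720 to 0.758 over the median gene without 1 library. With the GC term the rank correlations with transcript GC, gene length and upstream motifs were -0.12, 0.18 and -0.054, and with the stricter filter that with gene length was 0.48. The sign of a log2 change turned in these cases, labeled RNA unless named. With centering, CCND2 (0.035), ENO1 (0.12), HSP90AA1 (0.068), HSPA8 (0.072), POLR2A (0.057), RASSF1 (0.029), VEGFA unlabeled (-0.23) turned. With TMM, CCND2 (0.066), ENO1 (0.15), HSP90AA1 (0.099), HSPA8 (0.10), PKM (0.0052), POLR2A (0.088), RASSF1 (0.060), VEGFA unlabeled (-0.20) turned. With DESeq2, CCND2 (0.040), ENO1 (0.13), HSP90AA1 (0.073), HSPA8 (0.078), POLR2A (0.062), RASSF1 (0.034), VEGFA unlabeled (-0.23) turned. With the GC term, ENO1 (0.15), NEAT1 (-0.12), PKM (0.099), POLR2A (0.17), RASSF1 (0.28), VEGFA unlabeled (-0.27) turned. With both terms, ENO1 (0.20), MUS81 (0.024), NEAT1 (-0.060), PKM (0.12), POLR2A (0.20), RASSF1 (0.33), RGS16 (0.0037), SNHG7 (0.017), VEGFA unlabeled (-0.22) turned. With background subtracted, HNRNPA1 (-4.86), HSP90AB1 (-10.12), MYC (-0.0053), NEAT1 (-0.030) turned. Without 1 library, ENO1 from -0.070 to 0.056, HSP90AA1 from -0.16 to 0.052, HSPA8 from -0.11 to 0.0011, NEAT1 from -0.027 to 0.061, POLR2A from -0.15 to 0.0029 and TERT unlabeled from -0.076 to 0.022 crossed 0. Calls were lost, with these log2 changes, without 0 µM replicate 1, ATF4 (-0.19), COL1A1 (-0.41), DUSP10 (0.99), DUSP16 (0.53), HEY1 (0.23), HNRNPA1 (0.20), PHLDA1 (0.38), PIM2 (-0.63), SLC5A3 total (-0.29), SRSF7 labeled against unlabeled (0.38), TMEM187 labeled against unlabeled (0.46). Without 0 µM replicate 2, ATF4 (-0.21), BAD (-0.60), BLM (0.43), CASK labeled against unlabeled (0.53), DKC1 (-0.17), DUSP10 (1.05), DUSP16 (0.55), DUSP8 (0.44), HNRNPA1 (0.34), NEK8 labeled against unlabeled (0.46), NOTCH3 unlabeled (-0.10), PDGFA (-0.24), POT1 (1.10). Without 8 µM replicate 1, BAD (-0.50), DKC1 (-0.21), HNRNPA1 (0.16), PHLDA1 (0.54), TERF2IP (-0.29), TMEM187 labeled against unlabeled (0.48). Without 8 µM replicate 2, ATF4 (-0.14), BLM (0.41), COL1A1 (-0.34), DUSP10 (0.86), HEY1 (0.12), HIST1H4C (0.93), NEK8 labeled against unlabeled (0.46), PDGFA (-0.49), PHLDA1 (0.69), POT1 (1.36). VEGFA unlabeled passed with the opposite sign after centering and with both GC settings. Subtracted counts near 0 make HNRNPA1 and HSP90AB1 values unreliable, and COL1A1 had no count left. Some named genes no longer passed, with DESeq2 ATF4, BAD, COL1A1, DKC1, DUSP10, MUS81, NCL, PDGFA, PHLDA1, PIM2, POT1, TERF2IP. With TMM ATF4, COL1A1, DKC1, PDGFA. With centering ATF4, COL1A1, DKC1, PDGFA. With both terms AEN, ATF4, BAD, BBC3, BLM, COL1A1, DUSP10, EEF2, GAPDH, HNRNPA1, PDGFA, PHLDA1, PIM2, SRC, SREBF1, XRCC3. With background subtracted BAD, BLM, BRCA2, DHX9, DUSP10, DUSP16, HEY1, HIST1H4C, KLF6, PDGFA, PHLDA1, POT1. With the 0 µM libraries counted as 1 ATF4, HNRNPA1, NOTCH3 unlabeled, PHLDA1. With no filter on low counts COL1A1, PDGFA, PHLDA1. With limma at pseudocounts of 0.1 and 0.01 PDGFA. With 2 libraries a group, an exact test of 1 value cannot pass.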
